A study of Mus musculus with 20 samples.

Results

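CFU-E, the committed erythroid progenitors of bone marrow, were compared between phenylhydrazine (PHZ) and saline (PBS) in mice with a heterozygous P95H mutation of the splicing factor gene Srsf2. The comparison took the 10 libraries labelled with that genotype, 5 per treatment, out of 20 libraries in the series. The other 10 libraries came from Mx1-Cre mice without the mutation and were given the same treatments. All mice carried Mx1-Cre, a Cre recombinase driven by an interferon-inducible promoter that is active in blood cells and in other tissues. The mutant genotype is written Mx1-Cre Srsf2P95H/+ and is called P95H below. PHZ (30 mg/kg) was injected under the skin on day 0 and again on day 1, controls received PBS, and marrow CFU-E were sorted on day 4. The gate kept live, lineage-negative, c-Kit-high, CD105-positive cells and removed those with CD150, CD41, CD16/32 or Sca-1. The sources used here give no age, no sex and no account of how Cre was induced. No label says that each library came from a mouse of its own, so the p-values measure the spread between these libraries, which may be technical.

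PHZ oxidises haemoglobin and destroys circulating red cells, and the anaemia that follows raises the hormone erythropoietin (EPO). EPO binds its receptor on CFU-E and activates the kinase JAK2 and the transcription factor STAT5, which keep the cells alive and dividing and switch on feedback inhibitors of the same pathway. Such stress erythropoiesis needs iron, haem, lipids and amino acids for rapid divisions, and SRSF2 mutations are recurrent in myelodysplastic syndromes, in which red cell production fails.

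Expression was read from a deposited table of normalised values per gene, and the sums per library lay between 924763 and 1085047 over the 20 libraries. The labels state a minimum read number per library, but the table holds no counts, and the depth of single values is unknown. Values were analysed as log2(value + 1), and every fold change is a difference on that scale, PHZ minus PBS, which understates changes of low genes. The test covered 10890 genes, those that reached a value of 1 in 5 or more libraries. The first principal component of the 10 P95H libraries held 50.2% of the variance, with the PBS libraries at -24.7 to -14.0 and the PHZ libraries at 14.3 to 22.6. Srsf2 itself was at 648, 563, 604, 693 and 605 in PBS replicates 1 to 5 and 590.1, 567, 610.3, 599 and 564 in PHZ replicates 1 to 5. The groups overlapped and no change was called (log2 fold change -0.08, SE 0.0547, limma adjusted p = 0.258), and a value per gene does not show the P95H allele. Xist, which is expressed in females, was at 0.18 to 0.37 on the log2(value + 1) scale in PBS replicates 1, 4 and 5 and PHZ replicates 2 and 5 and at 6.64 to 7.43 in the other P95H libraries. With Xist as a covariate 1312 genes were higher and 1873 lower after PHZ, close to the counts without it that follow.

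After PHZ, 1371 genes were higher (12.6% of 10890) and 1923 were lower (17.7%) in limma at an adjusted p of at most 0.05, together 30.2%. Of these, 97 rose and 115 fell by more than 1 on the log2 scale. The PHZ libraries all lay above every PBS library for 827 genes (7.59%) and all below for 1091 (10%). The median change over all tested genes was -0.02. With every library scaled to the same sum the median was 0.08 and the calls were 2656 higher and 1090 lower, so that 70.9% of calls were higher instead of 41.6%. Small changes described below are therefore relative to the deposited scaling, and 22 of the 173 called genes chosen for description lost their call under equal sums. The counts for gene lists below are to be read against the shares over all genes.

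A receptor, a kinase, a membrane protein and lysosomal proteases were among the steepest rises. Ptger3, a receptor for prostaglandin E2, was at 8.10, 4.48, 5.98, 5.88 and 4.70 in PBS replicates 1 to 5 and 29.1, 32.4, 29.9, 27.9 and 27.4 in PHZ replicates 1 to 5. Prkcq, the protein kinase C theta best known from T cell signalling, was at 2.17, 2.13, 3.02, 3.08 and 2.02 after PBS and 16.2, 16.9, 16.4, 13.4 and 11.98 after PHZ. Neither gene showed any overlap between the groups, and both changes passed (Ptger3 log2 fold change 2.17, SE 0.127, limma adjusted p = 6.50e-11, and Prkcq log2 fold change 2.20, SE 0.119, limma adjusted p = 2.27e-11). App, the amyloid precursor membrane protein, was at 2.10, 3.27, 6.36, 5.39 and 3.50 after PBS and 30.4, 24.02, 34.8, 33.7 and 21.1 after PHZ. All PHZ libraries lay above all PBS libraries, and App rose (log2 fold change 2.58, SE 0.238, limma adjusted p = 2.31e-07). Fam124a rose from 1.87 ± 0.567 to 23.7 ± 4.89 (SD, n = 5 per group), with a log2 fold change of 3.10, SE 0.151, limma adjusted p = 6.61e-12, and B3gnt7, a glycosyltransferase that extends sugar chains, rose from 0.672 ± 0.540 to 12.7 ± 4.76 (SD, n = 5 per group), with a log2 fold change of 3.02, SE 0.259, limma adjusted p = 8.23e-08. The lysosomal proteases Ctsf and Ctsc, cathepsins F and C, rose by 2.18 (SE 0.146) and 2.05 (SE 0.161), with no overlap between the groups in either gene.

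The other members of the 15 largest rises were Podxl, C2cd4a, Plek2, Fabp5, Cda, Cpd, Erfe and Cish, all without overlap between the groups. Plek2, an actin regulator of erythroid cells, was at 1.70, 1.38, 2.29, 1.75 and 0.614 after PBS and 42.1, 30.0, 38.4, 21.9 and 38.8 after PHZ. C2cd4a was at 0.131, 0.197, 0.689, 0.430 and 0.0819 after PBS and 34.1, 46.5, 29.6, 17.6 and 22.8 after PHZ. Podxl, a CD34-related sialomucin, was at 3.99, 1.2002, 7.60, 5.18 and 1.12 after PBS and 232, 246, 211, 166 and 165 after PHZ. PBS replicates 2 and 5 were the lowest libraries for Podxl, and its PHZ libraries were all far above the PBS range. Tcrg-C1, a constant segment of the T cell receptor gamma locus that the naming rule leaves out and that was singled out after its values were seen, was at 0.635, 0.453, 1.42, 0.870 and 0 in PBS replicates 1 to 5 and 75.4, 131, 104, 87.1 and 61.4 in PHZ replicates 1 to 5. It had the largest fold change among the genes called higher (log2 fold change 5.80, SE 0.270, limma adjusted p = 3.27e-11), with no overlap. The T cell genes Cd3e and Cd3d did not exceed 0.251 and 0 in any P95H library. Coordinates here are 1-based positions of GENCODE vM21 on GRCm38. Ptger3 is ENSMUSG00000040016, chromosome 3, 157566892 to 157645888, plus strand, App is ENSMUSG00000022892, chromosome 16, 84949685 to 85173766, minus strand, and Tcrg-C1 is ENSMUSG00000076749, chromosome 13, 19214103 to 19217024, plus strand.

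**Figure D1:**
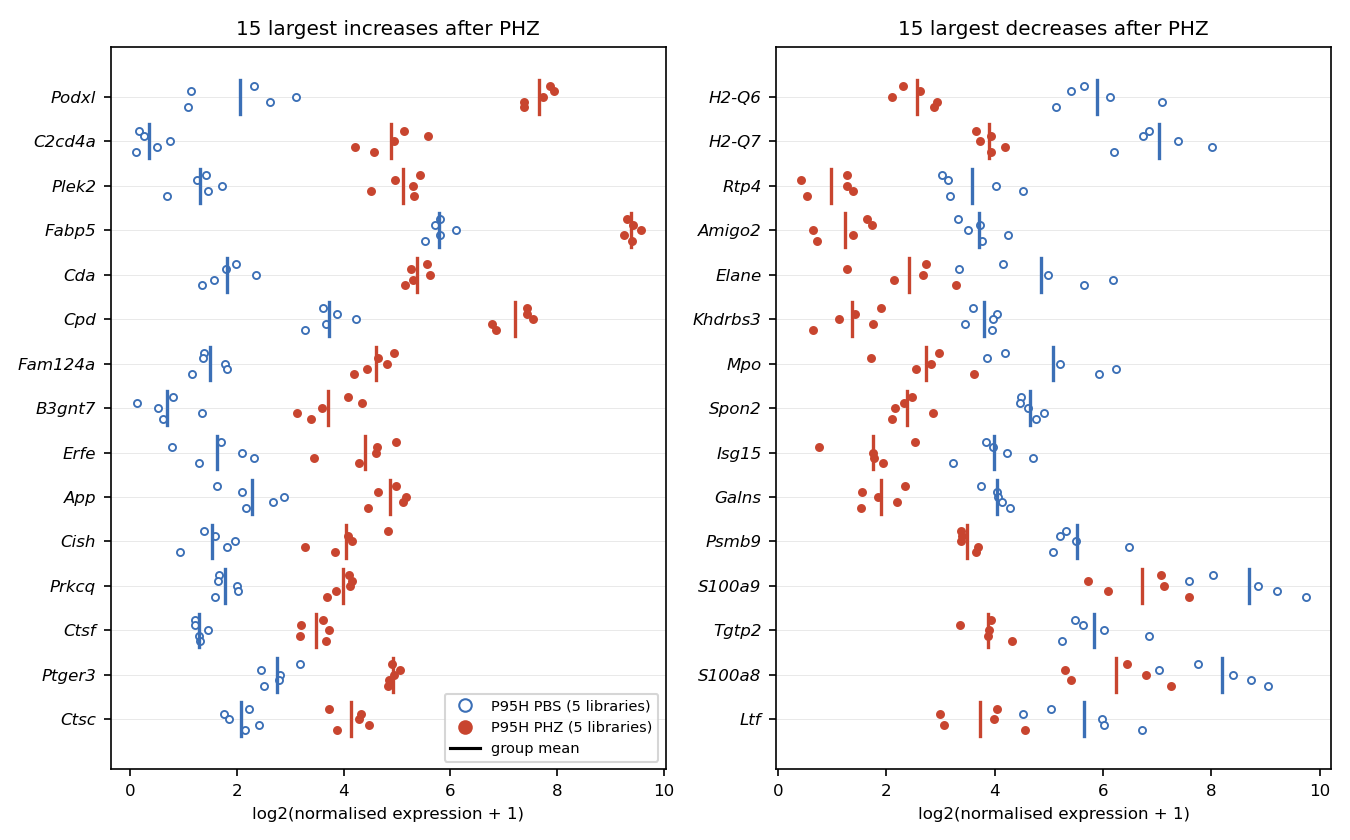
Normalised expression of the 15 called genes with the largest rise and the 15 with the largest fall after PHZ in P95H CFU-E, among genes with a mean of at least 5 and without predicted genes and immune receptor segments, as log2(value + 1) on the horizontal axis, with open blue points for the 5 PBS libraries, filled red points for the 5 PHZ libraries and a vertical line at each group mean. The groups do not overlap in any of the 15 rising genes, and they overlap in S100a8 and Ltf among the falling ones.

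Among the 15 largest falls were a matrix protein, a lysosomal enzyme and an RNA-binding protein, beside the interferon-responsive and neutrophil genes described below. Spon2, a secreted matrix protein, was at 21.3, 21.1, 23.5, 28.9 and 26.1 in PBS replicates 1 to 5 and 4.57, 3.99, 3.49, 6.30 and 3.29 in PHZ replicates 1 to 5. Every PHZ library lay below every PBS library, and Spon2 fell (log2 fold change -2.26, SE 0.133, limma adjusted p = 8.41e-11). Galns, a lysosomal sulfatase, was at 12.4, 15.5, 15.6, 16.6 and 18.4 after PBS and 4.07, 1.94, 2.59, 3.60 and 1.89 after PHZ. It fell without overlap (log2 fold change -2.16, SE 0.165, limma adjusted p = 7.78e-09). Khdrbs3, an RNA-binding regulator of splicing, and Amigo2, an adhesion protein, had PHZ ranges of 0.574 to 2.75 and 0.573 to 2.32 against PBS ranges of 9.91 to 15.5 and 8.995 to 18.1. Spon2 is ENSMUSG00000037379, chromosome 5, 33198184 to 33218455, minus strand, and Galns is ENSMUSG00000015027, chromosome 8, 122578242 to 122611463, minus strand.

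Interferon-stimulated genes, the antiviral programme that type I and type II interferons switch on through STAT and IRF factors, were lower after PHZ. Of 37 measured genes, 28 fell, 1 rose and 8 did not pass, against 17.7% and 12.6% of all genes, and 22 fell without overlap between the groups against 10%. The median change was -0.99 beside -0.02 for all genes. The transcription factor Irf7 was at 14.5, 19.7, 23.6, 34.8 and 17.2 in PBS replicates 1 to 5 and 8.60, 4.61, 6.81, 8.26 and 5.59 in PHZ replicates 1 to 5. Irf1, another factor of the family, was at 6.62, 7.85, 8.98, 13.3 and 4.64 after PBS and 1.78, 1.97, 2.07, 2.02 and 3.50 after PHZ. For both factors the PBS libraries were high and the PHZ libraries low, without overlap, and PBS replicate 4 was the highest library. Irf7 and Irf1 fell by 1.53 (SE 0.195) and 1.46 (SE 0.264) on the log2 scale, and Stat2, a STAT factor of the type I interferon response, was at 14.7, 17.3, 16.2, 16.3 and 14.96 after PBS and 8.62, 9.45, 10.1, 12.1 and 13.1 after PHZ (log2 fold change -0.54, SE 0.0922, limma adjusted p = 1.38e-04).

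Effectors of the response fell as well. Isg15, a ubiquitin-like modifier, was at 13.2, 14.6, 17.8, 25.2 and 8.36 in PBS replicates 1 to 5 and 4.79, 0.680, 2.35, 2.43 and 2.81 in PHZ replicates 1 to 5. Oas1a, a sensor of double-stranded RNA, was at 19.2, 23.9, 28.4, 30.5 and 21.7 after PBS and 7.85, 2.52, 6.402, 8.92 and 5.27 after PHZ. Rtp4 was at 7.17, 7.75, 15.2, 22.1 and 8.08 after PBS and 1.42, 0.349, 1.41, 1.603 and 0.451 after PHZ. None of these 3 genes overlapped between the groups (Isg15 log2 fold change -2.25, SE 0.286, limma adjusted p = 1.14e-05, Oas1a -1.91, SE 0.257, and Rtp4 -2.60, SE 0.260). Trim30a fell by 1.37 (SE 0.137) and Ifi27 by 1.56 (SE 0.165). Tgtp2, an interferon-induced GTPase that has a near-identical neighbour and whose single value is therefore uncertain, was at 43.6, 48.6, 63.4, 114 and 36.7 after PBS and 14.3, 9.31, 13.9, 13.6 and 19.0 after PHZ. Jak1, a kinase of the interferon receptors, was the single member that rose (log2 fold change 0.29, SE 0.0616, limma adjusted p = 0.00103), and the receptor subunits Ifnar1 and Ifnar2 were not called (log2 fold change 0.05 and -0.04). Isg15 is ENSMUSG00000035692, chromosome 4, 156199424 to 156200818, minus strand, and Oas1a is ENSMUSG00000052776, chromosome 5, 120896256 to 120907521, minus strand.

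Genes of MHC class I and antigen processing, which interferons also raise, were lower in nearly the whole list. Of 21 measured genes, 20 fell, 18 of them without overlap, against 17.7% and 10% of all genes, and the median was -0.95. The light chain B2m was at 2165, 2002, 2250.5, 3285 and 1754 in PBS replicates 1 to 5 and 916, 837, 879, 1070.0 and 960.1 in PHZ replicates 1 to 5. Tap1, a peptide transporter, was at 63.4, 57.1, 68.1, 126 and 54.5 after PBS and 24.8, 24.6, 22.2, 29.8 and 23.2 after PHZ. Nlrc5, the transactivator of class I genes, was at 7.48, 8.66, 11.1, 15.1 and 6.12 after PBS and 2.11, 1.63, 1.91, 2.04 and 2.31 after PHZ. The PBS libraries were all above the PHZ libraries, and PBS replicate 4 stood highest in each (B2m log2 fold change -1.27, SE 0.145, limma adjusted p = 2.60e-06, Tap1 -1.46, SE 0.183, and Nlrc5 -1.78, SE 0.210). The classical heavy chains H2-K1 and H2-D1 fell by 0.95 (SE 0.170) and 0.79 (SE 0.136), and the nonclassical H2-T22 and H2-T23 by 1.22 (SE 0.119) and 1.32 (SE 0.139). H2-Q6 and H2-Q7 had the largest falls of all named genes (-3.31 and -3.15), and the value of each is uncertain, because the 2 genes are nearly identical. The immunoproteasome subunit Psmb9 was at 38.8, 35.7, 44.4, 88.2 and 32.9 after PBS and 9.36, 9.59, 9.36, 11.9 and 11.5 after PHZ (log2 fold change -2.02, SE 0.222, limma adjusted p = 2.68e-06), and Psme2, an activator of the proteasome, fell by 0.69 (SE 0.0807). H2-Ab1, a class II gene, was the 1 member that was not called (-0.19).

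Promoter windows of RefSeq on GRCm38.p6, 250 bases before to 50 after each gene's start, were searched on both strands for GAAA followed by 2 bases of any kind and by GAAA again, the core of the interferon-stimulated response element. The window was present for 20 of the 28 lowered interferon-stimulated genes and for 17 of the 20 lowered class I genes. A match stood in 8 of the 20 (40%) and in 5 of the 17 (29.4%), beside 299 of 8261 tested genes with a window (3.62%) and 3.44% of all 32851 windows. A match describes letters in the window and not a bound site. The stretches below show the matches of 6 lowered genes, 5′ to 3′ on the strand of the gene, in capitals. In Isg15 and Oas1a neighbouring matches overlap and form 1 run of capitals, and capitals that begin with TTTC are matches on the other strand. The stretches are Isg15 (chr4:156200819-156200956, minus strand), Oas1a (chr5:120907526-120907605, minus strand), Stat2 (chr10:128270248-128270345, plus strand), Trim30a (chr7:104465194-104465289, minus strand), B2m (chr2:122147488-122147617, plus strand) and H2-T23 (chr17:36032756-36032885, minus strand).
Isg15: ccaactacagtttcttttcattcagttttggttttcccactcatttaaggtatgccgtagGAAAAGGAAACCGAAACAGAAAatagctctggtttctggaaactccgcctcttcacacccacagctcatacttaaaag
Oas1a: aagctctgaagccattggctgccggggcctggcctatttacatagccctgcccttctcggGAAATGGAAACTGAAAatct
Stat2: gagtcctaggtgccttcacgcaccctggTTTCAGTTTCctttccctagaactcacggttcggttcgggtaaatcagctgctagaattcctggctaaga
Trim30a: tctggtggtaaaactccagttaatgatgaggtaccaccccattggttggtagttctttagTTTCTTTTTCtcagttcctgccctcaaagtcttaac
B2m: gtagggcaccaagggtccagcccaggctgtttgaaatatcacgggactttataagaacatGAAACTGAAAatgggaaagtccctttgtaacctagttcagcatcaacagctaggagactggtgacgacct
H2-T23: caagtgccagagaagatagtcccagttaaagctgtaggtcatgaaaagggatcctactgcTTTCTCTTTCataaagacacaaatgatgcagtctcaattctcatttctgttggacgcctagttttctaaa

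Isg15 held 3 matches and Oas1a 2, and these genes fell by 2.25 and 1.91. Stat2, Trim30a, B2m and H2-T23 held 1 match each and fell by 0.54, 1.37, 1.27 and 1.32. These genes were picked for display, and a relation between the number of matches and the size of a fall was not tested.

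Markers of granulocytes and monocytes, cells that the lineage and CD16/32 gates remove, were present and were lower after PHZ. All 17 measured markers fell (Csf1r did not pass the filter), with a median of -1.85, and 9 of them without overlap. Over all genes 17.7% fell, and 10% lay lower without overlap. The summed level of the list was 574 to 2514 after PBS and 162 to 607 after PHZ. Its mean log2 value was 4.09, 3.65, 4.83, 5.36 and 5.51 in PBS replicates 1 to 5 and 3.19, 2.29, 3.22, 2.60 and 3.63 in PHZ replicates 1 to 5. No PHZ library reached the lowest PBS library, PBS replicates 4 and 5 were highest, and the group means differed by -1.70. S100a9, a neutrophil protein, was at 261, 192, 461, 588 and 859 in PBS replicates 1 to 5 and 133, 51.6, 138, 67.1 and 191 in PHZ replicates 1 to 5. Mpo, the myeloperoxidase of early granulocytes, was at 17.4, 13.4, 35.7, 74.9 and 59.4 after PBS and 6.87, 2.30, 6.11, 4.85 and 11.2 after PHZ. Elane, neutrophil elastase, was at 16.8, 9.13, 30.8, 71.5 and 49.2 after PBS and 5.63, 1.42, 5.36, 3.403 and 8.78 after PHZ. S100a9, Mpo and Elane did not overlap, while S100a8 and Ltf did. In bulk RNA, fewer cells of a type and less RNA per cell cannot be told apart.

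Without PBS replicates 4 and 5, 1 of the 17 markers was lower, and Mpo, Elane, S100a9, S100a8, Ltf and Itgam lost their call (limma adjusted p = 0.0573, 0.0639, 0.122, 0.114, 0.0839 and 0.0612). The interferon and class I falls were measured with and without these 2 libraries. Without them 26 interferon-stimulated genes and 19 class I genes were lower, with medians of -0.92 and -0.90. With the granulocyte marker mean as a covariate, which itself separates the treatments, 21 and 18 were lower, with medians of -0.84 and -0.96. The same covariate left 449 genes higher and 556 lower over all genes, 951 of them called in the same direction as before, and leaving out the 2 libraries gave 837 and 1263. Some of the 173 called genes chosen for description did not pass with the covariate. Besides granulocyte markers and the genes for which the loss is given where they are described, those reported here as called were Eng, Ptpn6, Nr3c1, Lmo2, Ldb1, Slc25a28, Fth1, Flvcr1, Xk, Icam4, Ccnd1, Cdc25a, Mcm7, Kif23, Cdc20, Gadd45a, Oaz2, Sat1, Atf6, Clk3, Srsf4, Srsf7, Ptbp1, Hnrnph3, Syncrip, Etf1, Gspt1, Upf2, Ptprc, Utp20, Rrn3, Tomm70a, Jak2, Stat5a, Stat5b, Irs2, Pim1, Ccnd3, Gata1, Klf1, Tal1, Sptb, Ddit4, Txnrd1, Jak1 and Trp53inp1. That list leaves out single members named only to spell out a count, and many of these lost their call too. With the covariate no fall passed on the G1, hypoxia, SR, spliceosome core, hnRNP, nonsense-mediated decay and mitochondrial lists, and no rise on the decay list. Counts shrank on other lists too, to 3 rises of membrane skeleton genes and 1 of blood group genes. The falls were 1 for mTORC1, 2 for adhesion and 4 for antioxidant genes. Without PBS replicates 4 and 5, Eng, Fcgr3, Fth1, Sat1, Srsf4, Hnrnph3, Ptprc, Jak2, Stat5a, Gata1 and Tal1 were not called either. The part of other cells in the remaining results was not tested.

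Megakaryocyte and lymphoid markers were lower as well, and over all genes 17.7% fell and 12.6% rose. Of 4 measured megakaryocyte markers, Gp5 and Gp9, platelet glycoproteins, fell by 1.26 (SE 0.265) and 0.57 (SE 0.149), and Itga2b, which encodes the gated CD41, missed the threshold (log2 fold change -0.28, SE 0.116, limma adjusted p = 0.0679). The mean of the list was 2.58 to 2.87 after PBS and 2.06 to 2.36 after PHZ. Both measured lymphoid markers fell, Cd79a of B cells by 1.25 (SE 0.232) and Nkg7 of cytotoxic cells by 1.43 (SE 0.310), while Cd3d was at 0 in all P95H libraries. With the granulocyte covariate Nkg7 and Gp9 were not called (log2 fold change -0.34 and -0.55, limma adjusted p = 0.467 and 0.120), and without PBS replicates 4 and 5 the change of Nkg7 was -0.94 (adjusted p = 0.0237). Summed lymphoid levels were 5.59 to 14.1 after PBS and 0.274 to 1.73 after PHZ. Il4, a cytokine of basophils and mast cells and the 1 measured marker of that list, rose (log2 fold change 1.06, SE 0.194, limma adjusted p = 2.89e-04), with Gzmb and Tpsb2 at 0, and was not called with the granulocyte covariate (0.72, adjusted p = 0.0848). Cd68, the 1 measured macrophage marker, was not called (0.01), with C1qa and Cd5l at 0.

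**Figure D2:**
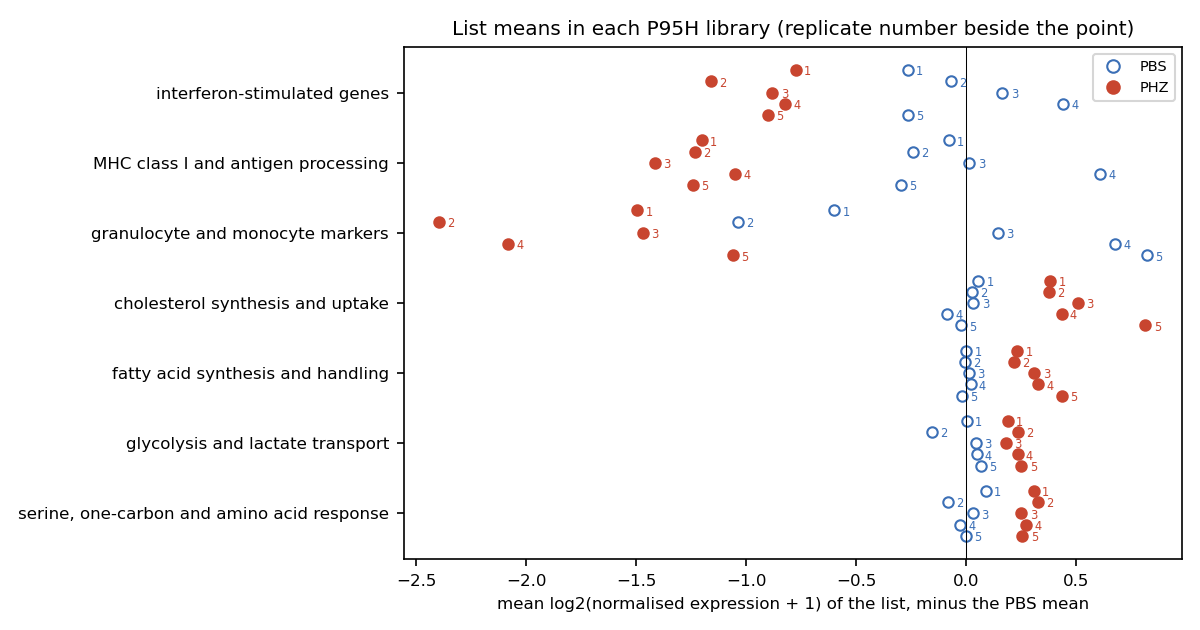
Mean log2(value + 1) of 7 gene lists in each P95H library, minus the mean of the PBS libraries, with open blue points for PBS, filled red points for PHZ and the replicate number beside each point. PHZ libraries lie below all PBS libraries for the interferon, MHC class I and granulocyte lists and above them for the cholesterol, fatty acid, glycolysis and serine lists, and PBS replicate 4 is highest for the interferon and class I lists.

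The labelled cell type was checked against its markers. Kit and Eng, which the sort kept, and Epor, Gata1, Klf1, Tfrc, Tal1, Car2 and Rhag were all expressed, and Slamf1 (CD150) and Cd3e did not exceed 0.160 and 0.251. Of the other genes whose products the gate removed, Ly6a (Sca-1), Fcgr2b and Ly6g reached at most 1.07, 2.09 and 1.59, and Itgam and Fcgr3 (CD16) were measured and fell by 0.74 (SE 0.177) and 0.62 (SE 0.233). Fcgr3 lost its call without any 1 of PBS replicates 3, 4 and 5 and PHZ replicates 1 to 4 (limma adjusted p = 0.0719 to 0.148) and with equal sums (0.0620), and its direction turned with the granulocyte covariate (log2 fold change 0.24, adjusted p = 0.509). Itgam was not called with that covariate or without PBS replicates 4 and 5 (adjusted p = 0.875 and 0.0612). Kit, the receptor of stem cell factor, was at 73.9, 82.4, 80.3, 107 and 94.7 in PBS replicates 1 to 5 and 43.0, 57.3, 46.3, 71.9 and 40.9 in PHZ replicates 1 to 5. It fell without overlap (log2 fold change -0.77, SE 0.155, limma adjusted p = 9.62e-04), a call that ended with the granulocyte covariate (adjusted p = 0.0640). Rhag, of the Rh complex, was at 274, 269, 273, 274 and 239 after PBS and 361, 319, 367, 364 and 404 after PHZ. It rose without overlap (log2 fold change 0.45, SE 0.0583, limma adjusted p = 7.47e-06). Car2, a carbonic anhydrase of erythroid cells, was at 4030.4, 3969, 4058, 4063 and 4206 after PBS and 3559.9, 2458, 2766, 2708 and 3263 after PHZ. Car2 fell (log2 fold change -0.47, SE 0.0833, limma adjusted p = 1.96e-04), except under quantile normalisation (log2 fold change -0.14, adjusted p = 0.243). Eng fell by 0.17 (SE 0.0629), and it lost its call in 6 of 10 fits that left out 1 library (PBS 3, 4 or 5, or PHZ 2, 3 or 5, adjusted p = 0.0501 to 0.130). Of the 7 identity genes that the sort did not use, 3 rose (Rhag, Tfrc and Tal1) and 3 fell (Car2, Gata1 and Klf1), and 1 fell without PBS replicate 1 or PHZ replicate 2. Over all genes, 12.6% rose and 17.7% fell.

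In the EPO pathway 2 docking proteins rose, and the receptor, JAK2 and STAT5 genes changed little or fell. Of 19 measured genes, 3 rose (Gab2, Irs2 and Pik3cd), 8 fell and 8 did not pass, with a median of -0.13. Over all genes 12.6% rose and 17.7% fell. Gab2, a docking protein below the EPO receptor, was at 3.94, 2.35, 4.23, 4.59 and 2.60 in PBS replicates 1 to 5 and 13.4, 17.9, 14.7, 10.4 and 13.0 in PHZ replicates 1 to 5. Irs2, another docking protein, was at 5.41, 5.597, 10.9, 7.72 and 3.60 after PBS and 21.4, 17.9, 21.1, 13.6 and 21.9 after PHZ. Neither overlapped between the groups (Gab2 log2 fold change 1.72, SE 0.163, limma adjusted p = 1.42e-07, and Irs2 log2 fold change 1.45, SE 0.303, limma adjusted p = 0.00145). Pik3cd, a catalytic subunit of PI3 kinase, rose by 0.54 (SE 0.103). The receptor gene Epor was at 153, 141, 134, 159 and 142 after PBS and 137, 126, 127, 146 and 128 after PHZ and was not called (log2 fold change -0.13, SE 0.0606, limma adjusted p = 0.106), although it passed without PHZ replicate 4 (adjusted p = 0.0485).

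The kinase Jak2 was at 33.7, 46.0, 41.1, 42.0 and 41.6 in PBS replicates 1 to 5 and 34.3, 24.9, 33.7, 30.0 and 40.5 in PHZ replicates 1 to 5. Its groups overlapped, PHZ replicate 2 was lowest, and the fall passed (log2 fold change -0.32, SE 0.102, limma adjusted p = 0.0200) but not without PBS replicate 2 or PHZ replicate 2 (adjusted p = 0.0554 and 0.0692). Stat5a and Stat5b fell by 0.23 (SE 0.0625) and 0.28 (SE 0.0683), and Ptpn6, the phosphatase SHP-1 that dampens receptor signals, by 0.32 (SE 0.0596). With equal library sums Jak2, Stat5a and Stat5b lost their calls (adjusted p = 0.139, 0.167 and 0.0651), and the list held 4 higher and 1 lower. Without PBS replicate 2 or 5 or PHZ replicate 2 or 3, 5 members of the list were lower. Without PBS replicates 4 and 5 the count was 3, and with the granulocyte covariate none of the 8 passed.

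Genes that STAT5 induces, or that feed back on its pathway, were more often higher than lower. Of 15 measured, 8 rose, 2 fell and 5 did not pass, beside 12.6% higher and 17.7% lower over all genes. Without overlap 7 rose, against 7.59% of all genes, and the median was 0.40. Cish, a SOCS family protein that blocks STAT5 docking, was at 1.62, 2.00, 2.90, 2.50 and 0.911 in PBS replicates 1 to 5 and 27.4, 16.01, 16.8, 8.70 and 13.4 in PHZ replicates 1 to 5. Socs2, another feedback inhibitor, was at 1.04, 1.46, 1.75, 1.06 and 1.25 after PBS and 4.95, 6.12, 6.67, 4.80 and 6.83 after PHZ. Osm, the cytokine oncostatin M, was at 5.96, 3.70, 7.91, 7.21 and 4.05 after PBS and 23.3, 22.04, 16.9, 17.8 and 14.5 after PHZ. All 3 rose without overlap (Cish log2 fold change 2.50, SE 0.342, limma adjusted p = 2.85e-05, Socs2 1.57, SE 0.130, and Osm 1.58, SE 0.256). The survival kinase Pim1 was at 17.2, 15.5, 26.6, 27.8 and 14.6 after PBS and 69.3, 51.0, 46.6, 28.1 and 52.0 after PHZ. It rose (log2 fold change 1.23, SE 0.287, limma adjusted p = 0.00349), and PHZ replicate 4 was the lowest PHZ library and stood just above PBS replicate 4. Dusp6, a phosphatase that switches off ERK, fell by 0.71 (SE 0.128), and Bcl2l1, which encodes BCL-XL, was not called (0.01). Cish is ENSMUSG00000032578, chromosome 9, 107296026 to 107302784, plus strand, and its promoter window was the 1 among 3 windows of rising genes on the list that held TTCCNGGAA, a STAT5 element found in 1.57% of tested genes with a window.

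**Figure D3:**
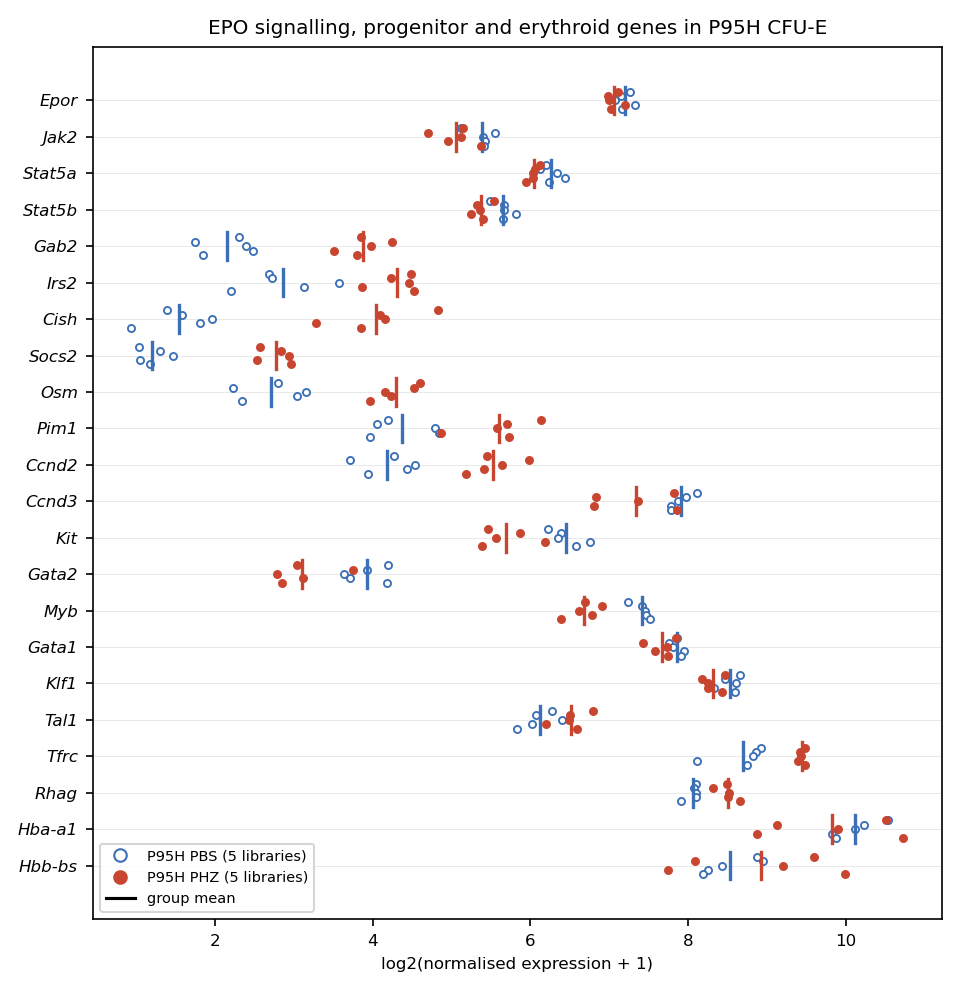
Normalised expression of 22 genes of EPO signalling, progenitor identity and red cell function as log2(value + 1), with open blue points for the 5 P95H PBS libraries, filled red points for the 5 P95H PHZ libraries and a line at each group mean. Compared with every PBS library, Gab2, Irs2, Cish, Socs2, Osm and Ccnd2 are higher in every PHZ library, Kit and Myb are lower in every PHZ library, and the globins Hba-a1 and Hbb-bs spread widely between PHZ libraries.

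The D-type cyclins, which drive entry into S phase with CDK4 and CDK6, changed in opposite directions. Ccnd2 was at 18.2, 12.1, 22.2, 20.6 and 14.4 in PBS replicates 1 to 5 and 42.8, 62.1, 48.7, 41.6 and 35.2 in PHZ replicates 1 to 5. Ccnd3, the main D cyclin of terminal erythroid divisions, was at 276, 251, 234, 219 and 219 after PBS and 226, 113, 164, 111 and 231 after PHZ. Ccnd2 rose without overlap (log2 fold change 1.35, SE 0.164, limma adjusted p = 5.58e-06). Ccnd3 fell with overlap (log2 fold change -0.57, SE 0.178, limma adjusted p = 0.0212), with PHZ replicates 2 and 4 lowest and PHZ replicates 1 and 5 in the PBS range. The Ccnd3 call ended without PBS replicate 1 or PHZ replicate 2 or 4 (adjusted p = 0.0511, 0.0638 and 0.0577), and with equal sums (adjusted p = 0.0634). Ccnd1, a low gene here, fell by 0.80 (SE 0.204) with a pseudocount of 1 and was not called with a pseudocount of 5 (adjusted p = 0.0854). Of 20 measured G1 genes 2 rose and 3 fell, beside 12.6% and 17.7% of all genes. Among them were Cdk2 at -0.22 (SE 0.0710) and the phosphatase Cdc25a at 0.29 (SE 0.0777). The count of falls was 1 without PBS replicate 1 or PHZ replicate 2. The inhibitor Cdkn1a was not called (log2 fold change 0.45, SE 0.233, limma adjusted p = 0.154).

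Mitosis genes were higher more often than lower, with 9 of 30 measured rising and 1 falling (median 0.10), beside 12.6% and 17.7% of all genes. Kif23, a kinesin of the midbody, was at 29.4, 31.6, 25.6, 23.02 and 24.6 in PBS replicates 1 to 5 and 44.5, 46.2, 40.7, 34.8 and 43.1 in PHZ replicates 1 to 5. It rose without overlap (log2 fold change 0.62, SE 0.101, limma adjusted p = 8.80e-05). Ccnb1, the mitotic cyclin B1, and Cdc20, an activator of the anaphase-promoting complex, rose by 0.39 (SE 0.1001) and 0.31 (SE 0.0739), and Cenpa, the centromeric histone, fell by 0.35 (SE 0.0529). The rises numbered 5 without PBS replicate 4 or PHZ replicate 1, 4 without PBS replicates 4 and 5, 15 with equal sums, and none passed with the granulocyte covariate. Among 40 DNA replication genes 2 rose and 9 fell, beside 12.6% and 17.7% of all genes, with a median of -0.07. With equal sums the median was 0.04, 4 rose and none of the 9 falls passed. Pold1, a replicative polymerase, fell by 0.19 (SE 0.0485), and the helicase subunit Mcm7 by 0.21 (SE 0.0587), both not called with equal sums (adjusted p = 0.312 and 0.195). The falls numbered 4 without PHZ replicate 2, 14 without PHZ replicate 5 and 5 without PBS replicates 4 and 5. With the granulocyte covariate there was 1 fall.

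Gata2, Myb and Hhex, transcription factors of immature progenitors, fell, and Gata1 and Klf1, which drive erythroid commitment, moved little. Gata2, which precedes GATA1 in erythroid cells, was at 17.2, 14.1, 11.4, 12.1 and 17.1 in PBS replicates 1 to 5 and 7.25, 12.4, 5.89, 7.65 and 6.21 in PHZ replicates 1 to 5. PHZ replicate 2 lay in the PBS range, the others below it, and Gata2 fell (log2 fold change -0.82, SE 0.153, limma adjusted p = 3.89e-04). Myb, which keeps progenitors dividing, was at 150.2, 169.5, 174, 175 and 183 after PBS and 102, 119, 97.5, 109 and 82.7 after PHZ. It fell without overlap (log2 fold change -0.74, SE 0.0975, limma adjusted p = 8.80e-06). Hhex, a homeobox factor, was at 6.75, 8.86, 6.53, 13.1 and 10.2 after PBS and 2.51, 4.50, 1.46, 1.90 and 1.56 after PHZ, and it fell the furthest of the list (log2 fold change -1.60, SE 0.244, limma adjusted p = 6.56e-05). Cd48, a surface receptor of progenitors, was at 12.1, 6.37, 8.08, 18.7 and 12.5 after PBS and 30.0, 41.9, 28.5, 33.0 and 26.1 after PHZ. It rose (log2 fold change 1.46, SE 0.221, limma adjusted p = 7.52e-05), so that of 13 measured immature progenitor genes 2 rose (Cd48 and Hoxa9) and 4 fell (Gata2, Myb, Hhex and Erg), against 6 higher and 3 lower with equal sums. With the deposited scaling 12.6% of all genes were higher and 17.7% lower.

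The erythroid list held 20 measured factors, of which 1 rose (Tal1) and 6 fell, beside 12.6% and 17.7% of all genes. With equal sums 4 were higher and 4 lower. Gata1 was at 232, 215, 223, 247 and 239 after PBS and 229, 172, 212, 190.1 and 214 after PHZ, and Klf1 at 404, 355, 390.3, 320.0 and 386 after PBS and 354, 289, 305, 303 and 344 after PHZ. Both overlapped between the groups with PHZ replicate 2 lowest, and their falls were small (-0.19, SE 0.0692, adjusted p = 0.0413, and -0.22, SE 0.0679, adjusted p = 0.0189, limma). Gata1 lost its call without any 1 of PBS replicates 1, 4 and 5 and PHZ replicates 2 and 4 (adjusted p = 0.0654 to 0.141), and Klf1 without PBS replicate 1 or PHZ replicate 2 (adjusted p = 0.0538 and 0.0600). Tal1 was at 76.3, 66.3, 83.5, 64.0 and 56.1 after PBS and 109.9, 89.8, 88.6, 72.4 and 95.1 after PHZ (log2 fold change 0.39, SE 0.125, limma adjusted p = 0.0223), and its call ended without PBS replicate 4 or 5 or PHZ replicate 1 (adjusted p = 0.0519, 0.0705 and 0.0649). The GATA1 partner genes Lmo2 and Ldb1 fell by 0.33 (SE 0.0602) and 0.27 (SE 0.0656). Of 19 regulators of stress erythropoiesis, Bmpr2, a BMP receptor, rose by 0.65 (SE 0.161) and was at 0.25 with the granulocyte covariate (limma adjusted p = 0.494), and Kit and Nr3c1, the glucocorticoid receptor, fell, Nr3c1 by 0.24 (SE 0.0679) and not with equal sums (adjusted p = 0.185).

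The transferrin receptor rose, and the iron and haem lists held both rises and falls. Tfrc, the transferrin receptor, was at 484, 466, 452, 275 and 429 in PBS replicates 1 to 5 and 718, 685, 692, 675 and 714 in PHZ replicates 1 to 5. It rose (log2 fold change 0.75, SE 0.116, limma adjusted p = 5.67e-05) without overlap, and PBS replicate 4 was lowest. With the granulocyte covariate the rise of Tfrc was 0.47 and passed. Of 17 measured iron genes 2 rose (Tfrc and Ncoa4, the ferritinophagy receptor) and 2 fell (Slc25a28 and Fth1), against 5 higher and 1 lower with equal sums. The mitochondrial iron importer Slc25a28 fell by 0.35 (SE 0.0655) and the ferritin heavy chain Fth1 by 0.17 (SE 0.0549). The direction of Fth1 turned under quantile normalisation (log2 fold change 0.16, adjusted p = 0.045), and its call ended without PBS replicate 1 or PHZ replicate 2 or 3 (adjusted p = 0.0704, 0.0892 and 0.0557). The haem list holds genes of synthesis, export and breakdown. Of its 17 measured genes 3 rose (among them Cpox and Flvcr1), beside 12.6% of all genes. Falls were called for 4, beside 17.7% of all genes, Alas1 and Urod of synthesis and Blvrb and Blvra of breakdown. Cpox, coproporphyrinogen oxidase, was at 406, 410.3, 451, 401 and 378 after PBS and 624, 522, 569.6, 492 and 679 after PHZ (log2 fold change 0.49, SE 0.0787, limma adjusted p = 8.19e-05), and the haem exporter Flvcr1 rose by 0.42 (SE 0.0721). Alas1, the housekeeping first enzyme, fell by 0.41 (SE 0.0698), and the erythroid first enzyme Alas2 was at 12.3, 13.3, 10.3, 10.9 and 7.84 after PBS and 23.5, 10.7, 14.7, 7.30 and 26.6 after PHZ and was not called (log2 fold change 0.44, SE 0.277, limma adjusted p = 0.247), except without PHZ replicate 4 (adjusted p = 0.0470).

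Globin genes and Slc4a1, which mark late erythroid cells, spread widely between the PHZ libraries. Hba-a1, an alpha globin with a near-identical copy, was at 1482, 1202, 1107, 910.0 and 943 in PBS replicates 1 to 5 and 1464, 559, 961, 469 and 1701 in PHZ replicates 1 to 5. Hbb-bs, an adult beta globin that also has a close copy, was at 469, 493, 344, 304 and 291 after PBS and 774, 272, 591, 214 and 1018 after PHZ. Slc4a1, the band 3 anion exchanger, was at 42.7, 54.8, 31.3, 31.1 and 24.6 after PBS and 97.4, 28.6, 44.5, 15.3 and 129 after PHZ. In all 3 genes PHZ replicate 5 lay above every PBS library and PHZ replicate 4 below every PBS library. No globin gene passed in limma among the 5 measured, and 0 had an unadjusted p below 0.05 (Hbb-bs log2 fold change 0.39, SE 0.368, limma adjusted p = 0.460). Hbb-bt passed without PHZ replicate 4 (log2 fold change 0.72, adjusted p = 0.0333), and Hbq1b without PHZ replicate 5 (-0.43, adjusted p = 0.0448). Of 17 membrane skeleton genes 7 rose and 1, Kel, fell, beside 12.6% and 17.7% of all genes. Sptb, beta spectrin, was at 133, 149, 133, 133 and 111 after PBS and 218, 165, 180.0, 139 and 215 after PHZ (log2 fold change 0.46, SE 0.115, limma adjusted p = 0.00468), and Tpm1 and Xk rose by 0.42 (SE 0.0645) and 0.55 (SE 0.0897). Of 19 blood group and surface genes 4 rose (Rhag, Cd24a, Cd55 and Slc29a1) and 3 fell (Rhd, Icam4 and Kel), and Rhag and Rhd, 2 chains of the Rh complex, changed by 0.45 (SE 0.0583) and -0.46 (SE 0.0798). The rises on that list numbered 2 without PBS replicate 3 or 5 or PHZ replicate 2, and 1 without PBS replicates 4 and 5.

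Genes of lipid synthesis were higher. In cholesterol synthesis and uptake 19 of 26 measured genes rose and 18 genes lay higher without overlap, against 12.6% and 7.59% of all genes. The median was 0.51. Stard4, a sterol carrier, was at 22.95, 24.4, 21.9, 17.2 and 19.7 in PBS replicates 1 to 5 and 47.3, 50.3, 50.9, 39.9 and 59.6 in PHZ replicates 1 to 5. Mvd, which makes isopentenyl pyrophosphate, was at 4.93, 4.10, 4.60, 2.90 and 5.64 after PBS and 7.65, 6.42, 8.35, 7.28 and 13.4 after PHZ. Both rose without overlap (Stard4 log2 fold change 1.19, SE 0.162, limma adjusted p = 2.07e-05, and Mvd log2 fold change 0.80, SE 0.187, limma adjusted p = 0.00274), as did Sc5d, a late enzyme, by 0.68 (SE 0.119). The promoter windows of 12 of the 19 rising genes were present, and 0 of them held TCACNCCAC, a sterol regulatory element found on either strand in 1.38% of tested genes with a window. Without PBS replicates 4 and 5, the list held 11 rises, and with the granulocyte covariate 8.

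Among fatty acid genes, desaturases, elongases and enzymes of synthesis rose, and Cpt1a, Cpt2 and Acadl, which act in mitochondrial oxidation, fell. Of 30 measured, 14 rose and 6 fell, beside 12.6% and 17.7% of all genes, and Hadhb, another enzyme of oxidation, was among the risers (0.14). With the granulocyte covariate the list held 6 rises and 3 falls. Scd2, a desaturase that makes monounsaturated fatty acids, was at 65.3, 68.2, 73.7, 67.4 and 71.5 in PBS replicates 1 to 5 and 155, 206, 244, 269.6 and 427 in PHZ replicates 1 to 5. Scd1 was at 16.2, 15.2, 12.3, 10.6 and 16.3 after PBS and 17.0, 16.7, 38.4, 31.7 and 72.9 after PHZ, and Elovl6, an elongase, at 10.5, 9.76, 9.58, 8.75 and 8.48 after PBS and 14.8, 19.6, 17.9, 18.4 and 16.3 after PHZ. None of the 3 overlapped between the groups, and PHZ replicate 5 was highest for Scd1 and Scd2 (Scd2 log2 fold change 1.82, SE 0.294, limma adjusted p = 1.94e-04, Scd1 log2 fold change 1.07, SE 0.312, limma adjusted p = 0.0151, and Elovl6 0.82, SE 0.108). Scd1 lost its call without PBS replicates 4 and 5 (adjusted p = 0.0700) and when the P95H groups were fitted without the Mx1-Cre groups (adjusted p = 0.0666). Acaca and Fasn, which carry out the committed steps of synthesis, rose by 0.58 (SE 0.0834) and 0.56 (SE 0.127). With the granulocyte covariate Fasn was at 0.28 (adjusted p = 0.308) and Scd1 at 1.15 (adjusted p = 0.132), neither of them called. Cpt1a, which admits fatty acids to mitochondria for oxidation, was at 38.3, 43.5, 41.5, 52.8 and 44.5 after PBS and 33.6, 27.8, 27.6, 27.1 and 29.3 after PHZ. It fell (log2 fold change -0.58, SE 0.102, limma adjusted p = 1.92e-04), and Acadl, an enzyme of that oxidation, fell by 0.52 (SE 0.0669).

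In glycolysis 11 of 22 measured genes rose and 1, Ldhb, fell, beside 12.6% and 17.7% of all genes, with a median of 0.19. Slc16a3, a lactate exporter, was at 2.48, 1.90, 1.99, 2.35 and 2.16 in PBS replicates 1 to 5 and 5.15, 4.29, 6.08, 7.05 and 11.4 in PHZ replicates 1 to 5. Pgam1, phosphoglycerate mutase, was at 4.72, 1.70, 7.74, 4.50 and 4.13 after PBS and 11.3, 12.9, 16.2, 13.7 and 13.1 after PHZ. Both rose without overlap (Slc16a3 log2 fold change 1.23, SE 0.156, limma adjusted p = 4.89e-06, and Pgam1 log2 fold change 1.46, SE 0.243, limma adjusted p = 1.64e-04). Pfkp, a phosphofructokinase, rose by 0.96 (SE 0.118), and Pkm was not called (log2 fold change -0.72, SE 0.336, limma adjusted p = 0.115). With the granulocyte covariate the counts were 10 higher and 1 lower. In serine, one-carbon and amino acid metabolism 14 of 32 rose and 3 fell (Ddit3, Ddit4 and Sesn2). Mthfd2, of mitochondrial folate metabolism, was at 56.4, 51.6, 60.6, 47.0 and 52.5 after PBS and 157, 144, 141, 104 and 122 after PHZ. It rose without overlap (log2 fold change 1.29, SE 0.127, limma adjusted p = 3.37e-07), and Psat1, of serine synthesis, and Slc7a6, an amino acid transporter, rose by 0.69 (SE 0.0895) and 1.33 (SE 0.138). Ddit4, which restrains mTORC1 under stress, was at 6.15, 5.32, 6.05, 5.88 and 7.48 after PBS and 2.35, 3.43, 2.32, 3.27 and 5.28 after PHZ (log2 fold change -0.76, SE 0.170, limma adjusted p = 0.00179). The transcript of the regulator Atf4 was not called (log2 fold change -0.06, SE 0.0939, limma adjusted p = 0.692).

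Antioxidant genes were lower more often than higher with the deposited scaling, 10 against 3 of 28 measured, beside 17.7% and 12.6% of all genes. The median was -0.07, and it was 0.04 with equal sums. Sod1, the cytosolic superoxide dismutase, was at 1056, 1031, 990.2, 1233 and 1137 in PBS replicates 1 to 5 and 837, 659.8, 661, 737 and 726 in PHZ replicates 1 to 5. Txnrd1, thioredoxin reductase, was at 61.0, 55.3, 66.3, 47.2 and 48.8 after PBS and 98.4, 96.7, 105, 86.3 and 74.1 after PHZ. They moved apart without overlap, Sod1 down (log2 fold change -0.59, SE 0.0777, limma adjusted p = 8.26e-06) and Txnrd1 up (log2 fold change 0.71, SE 0.140, limma adjusted p = 7.32e-04). With the granulocyte covariate Sod1 was at -0.39, still called. Taldo1, of the pentose phosphate pathway, fell by 0.46 (SE 0.0611), and Gss, glutathione synthetase, rose by 0.41 (SE 0.0578). The falls numbered 6 without PHZ replicate 2, and with equal sums the list held 8 higher and 5 lower. Hypoxia genes gave 7 rises and 3 falls of 22, with Vegfa, the vascular growth factor, up by 0.63 (SE 0.0889) and Bhlhe40 by 0.69 (SE 0.128). Of 12 polyamine genes, 3 fell (Oaz1, Oaz2 and Sat1), beside 17.7% of all genes, with Oaz1, antizyme 1, lower by 0.43 (SE 0.0694). Sat1 was not called without PBS replicate 4 or 5 (adjusted p = 0.0544 and 0.0505).

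**Figure D4:**
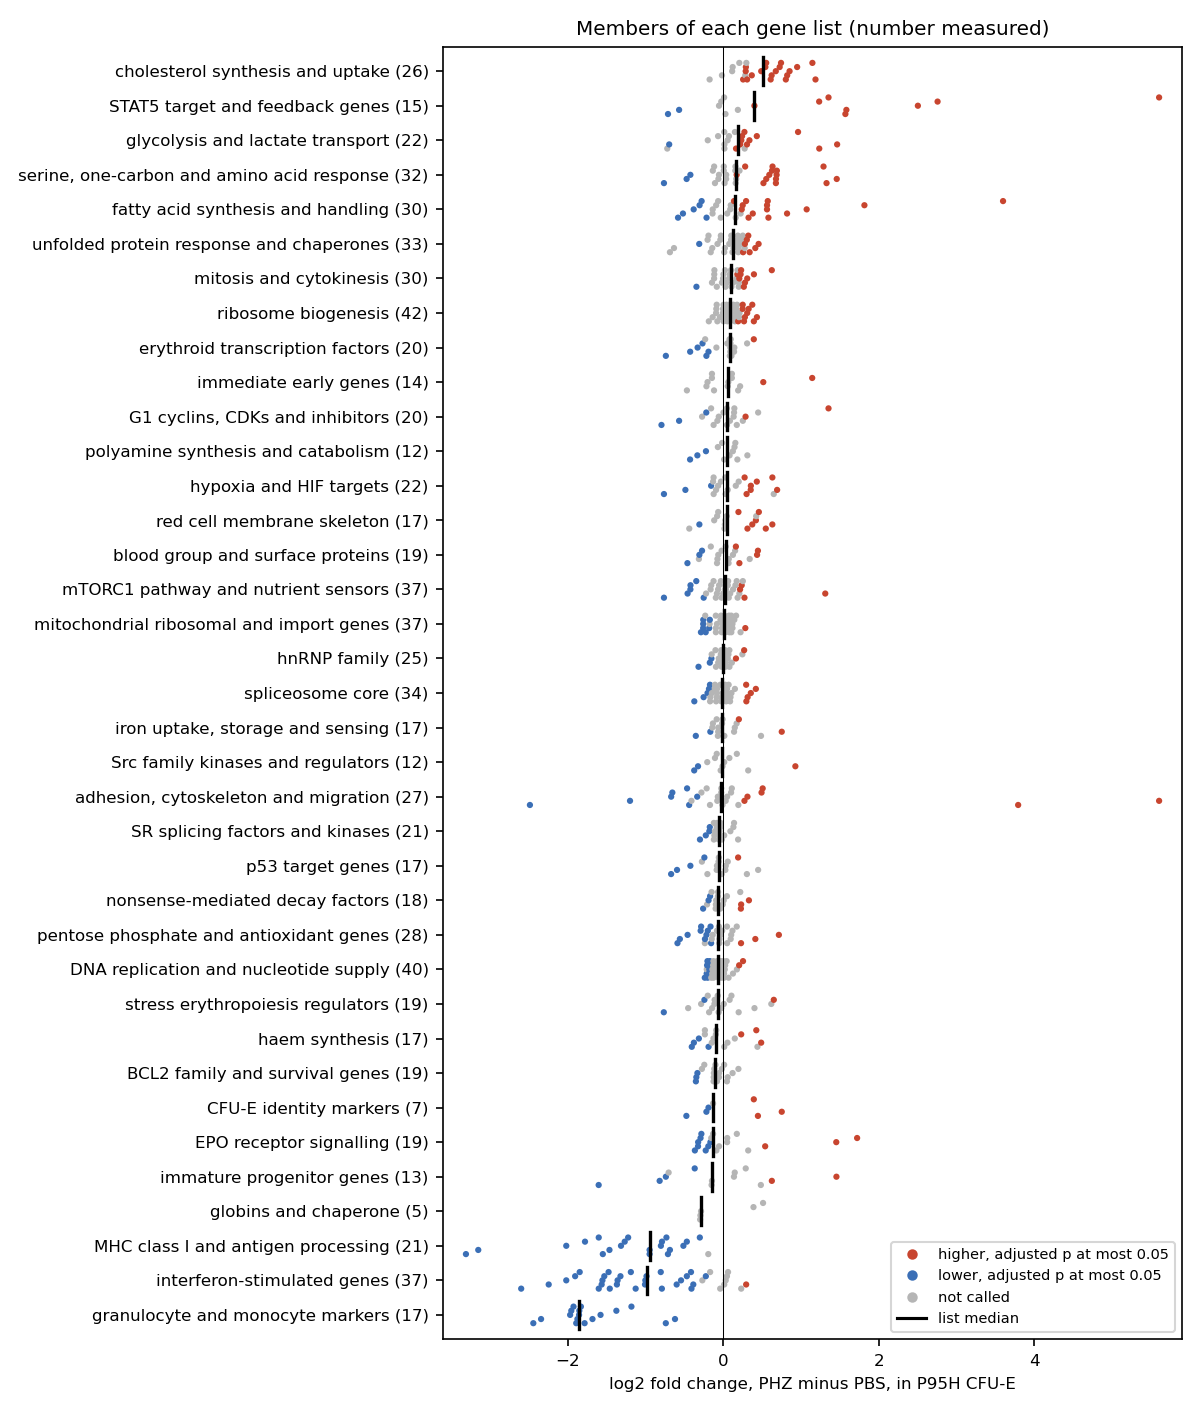
Log2 fold change, PHZ minus PBS, of every measured member of the gene lists with at least 5 measured genes, with red points for genes called higher, blue points for genes called lower, grey points for genes not called and a black line at the list median. Medians run from -1.85 for granulocyte and monocyte markers to 0.51 for cholesterol genes, with medians near 0 for most lists between them.

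Of 21 measured SR proteins, the family to which SRSF2 belongs, and their kinases, 4 fell (Srsf4, Srsf7, Clk1 and Clk3), beside 17.7% of all genes, with a median of -0.06 that was 0.05 with equal sums. Srsf7 was at 503, 476, 466, 436 and 502 in PBS replicates 1 to 5 and 451, 424, 409, 427 and 399 in PHZ replicates 1 to 5, and Srsf4 at 136, 119, 127, 127 and 128 after PBS and 127, 106, 110.4, 102 and 117 after PHZ. Both overlapped between the groups, the changes were -0.17 (SE 0.0569) and -0.18 (SE 0.0560), and neither was called with equal sums (adjusted p = 0.369 and 0.360). Leaving out PBS replicate 1 ended both calls (adjusted p = 0.0603 and 0.0504), and so did PBS replicate 5 or PHZ replicate 3 or 5 for Srsf7 (adjusted p = 0.0692, 0.0582 and 0.0560) and PHZ replicate 2 or 4 for Srsf4 (adjusted p = 0.0517 and 0.0559). Clk3 lost its call without PHZ replicate 2 (adjusted p = 0.0531). The falls on that list numbered 1 without PBS replicate 1 or PHZ replicate 2 and 2 without PBS replicate 5 or PHZ replicate 4.

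In the spliceosome core 5 of 34 genes rose and 5 fell, near the 12.6% and 17.7% of all genes, and the 5 rises were without overlap. Prpf8, Prpf6, Prpf31 and Snrnp200 were among them. Prpf8, the central protein of the catalytic core, was at 208, 226, 234, 218 and 205 in PBS replicates 1 to 5 and 294, 296, 300.2, 281 and 288 in PHZ replicates 1 to 5. It rose (log2 fold change 0.42, SE 0.0684, limma adjusted p = 9.26e-05), and Prpf31 rose by 0.35 (SE 0.0660). The 5 falls were in Sm proteins, the ring around the small nuclear RNAs (Snrpd2, Snrpd3, Snrpe, Snrpf and Snrpg). Snrpg, which fell the most, was at 579, 462, 397, 495 and 476 after PBS and 330.2, 383, 319, 431 and 394 after PHZ (log2 fold change -0.37, SE 0.1002, limma adjusted p = 0.00735). The count of falls was 1 without PBS replicate 1, 3 without PBS replicate 4 or 5 or PHZ replicate 3 or 5, and 1 with equal sums, under which 12 genes of the list rose. Of 25 hnRNP genes 2 rose (Ptbp1 and Syncrip) and 3 fell (Hnrnpa2b1, Hnrnpa3 and Hnrnph3), against 9 and 1 with equal sums. Among 18 factors of nonsense-mediated decay, 3 rose (Etf1, Gspt1 and Smg5) and 3 fell (Upf2, Smg6 and Magoh). Etf1, a release factor, rose by 0.33 (SE 0.0639) and Upf2, a core factor of the decay, fell by 0.17 (SE 0.0488). Of these decay factors 5 were lower without PBS replicate 3, and none of the 3 falls passed with equal sums. Exon use was not analysed here.

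Fyn, the Src family kinase that the study's title names beside mTORC1, was at 5.86, 5.81, 6.599, 6.85 and 8.27 in PBS replicates 1 to 5 and 6.69, 6.56, 6.45, 7.40 and 5.87 in PHZ replicates 1 to 5. The groups overlapped and no change was called (log2 fold change -0.01, SE 0.0953, limma adjusted p = 0.950). Pag1, a membrane adaptor that recruits the Src inhibitor Csk, was at 4.01, 4.67, 4.78, 3.63 and 3.83 after PBS and 8.07, 9.94, 10.02, 7.89 and 8.38 after PHZ. It rose without overlap (log2 fold change 0.93, SE 0.101, limma adjusted p = 7.68e-07), and of 12 Src family genes and regulators Ptpn6 and Ptprc fell. Ptprc (CD45) was not called without any 1 of PBS replicates 3, 4 and 5 and PHZ replicates 1 and 3 (adjusted p = 0.0510 to 0.0951). In the mTORC1 pathway 4 of 37 components rose (Castor1, Rptor, Eif4ebp2 and Akt1) and 6 fell, beside 12.6% and 17.7% of all genes. With equal sums 9 were higher and 4 lower. Castor1, an arginine sensor that restrains mTORC1, was at 0.997, 1.02, 1.32, 1.498 and 0.553 after PBS and 3.91, 3.90, 4.53, 4.12 and 4.02 after PHZ. It rose (log2 fold change 1.31, SE 0.119, limma adjusted p = 6.76e-08), while Slc38a9, a lysosomal arginine transporter that activates mTORC1, fell by 0.42 (SE 0.149), and Mtor itself was not called (log2 fold change 0.18, SE 0.0702, limma adjusted p = 0.0516).

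Protein-folding, ribosome and mitochondrial lists were sensitive to the scaling. With the deposited scaling 12.6% of all genes rose and 17.7% fell. Of 33 unfolded protein response and chaperone genes 7 rose and 1, Dnajb1, fell, with 16 rises without PHZ replicate 5 and 20 with equal sums. The rises numbered 3 without PBS replicates 4 and 5, and 1 with the granulocyte covariate. Edem1 and Atf6 rose by 0.34 (SE 0.0584) and 0.41 (SE 0.0827). The heat shock gene Hspa1a, which has a near-identical copy, was at 93.1, 37.2, 37.2, 51.0 and 39.9 after PBS and 2.04, 149.6, 15.97, 89.3 and 37.6 after PHZ. Its PHZ libraries spread far beyond the PBS range on both sides, and it was not called (log2 fold change -0.69, SE 0.955, limma adjusted p = 0.626). Of 42 ribosome biogenesis genes 10 rose, among them Utp20 and Rrn3 (0.43 and 0.33), with 18 rises without PHZ replicate 5 and 23 with equal sums. With the granulocyte covariate 1 gene of that list was higher. Of 37 mitochondrial ribosomal and import genes 1, Tomm70a, rose and 7 fell, against 12 higher and 1 lower with equal sums. Those falls numbered 4 without PBS replicate 1 or 5 and 3 without PHZ replicate 5.

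Members of the cell death and p53 lists fell more often than they rose, and so did all genes. Of all genes 17.7% fell and 12.6% rose, together 30.2%. Of 19 BCL2 family and survival genes 3 fell, among them the BH3 protein Bid by 0.35 (SE 0.0546) and Cflar by 0.35 (SE 0.0859), and the other 16 did not pass. Of 17 p53 targets 1, Ccng1, rose and 4 fell (Sesn2, Trp53inp1, Phlda3 and Gadd45a). Phlda3 was at 7.35, 4.49, 4.58, 3.33 and 5.59 in PBS replicates 1 to 5 and 3.05, 3.25, 2.39, 2.75 and 3.24 in PHZ replicates 1 to 5, without overlap (log2 fold change -0.59, SE 0.142, limma adjusted p = 0.00302). Of 27 adhesion and cytoskeleton genes 6 rose and 7 fell, beside 12.6% and 17.7% of all genes. Itgb1, the beta 1 integrin, was at 175, 167, 182, 157 and 174 after PBS and 221, 227, 257, 241 and 258 after PHZ, and Msn, moesin, at 60.4, 71.2, 76.9, 71.6 and 71.5 after PBS and 95.4, 106, 99.9, 100.0 and 99.3 after PHZ. Both rose without overlap (Itgb1 log2 fold change 0.49, SE 0.0643, limma adjusted p = 7.46e-06, and Msn log2 fold change 0.51, SE 0.0681, limma adjusted p = 9.96e-06). Vim, vimentin, was at 2.64, 2.19, 4.99, 7.43 and 6.91 after PBS and 1.49, 1.01, 1.08, 1.34 and 1.98 after PHZ. It fell (log2 fold change -1.20, SE 0.270, limma adjusted p = 0.00225), and with the granulocyte covariate it was not called (adjusted p = 0.684). Of 14 immediate early genes, Ier3 and Junb rose by 1.14 (SE 0.143) and 0.51 (SE 0.108), and the other 12 did not pass.

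The same treatment in Mx1-Cre mice gave 1856 genes higher (17%) and 1618 lower (14.9%). A test of the difference between these effects called no gene (0% of 10890) in limma, and 577 genes had an unadjusted p below 0.05. The lowest adjusted p was 0.798, for B3galt6. The effects correlated over the 10890 genes with Pearson's r = 0.871 and Spearman's rho = 0.788, as a description, since genes are not independent replicates and libraries are shared by all genes. Called in both genotypes in the same direction were 2204 genes, which is 66.9% of the P95H calls and 63.4% of the Mx1-Cre calls. Cish rose by 2.50 in P95H and 2.12 in Mx1-Cre, Ptger3 by 2.17 and 2.64, and Spon2 changed by -2.26 and -1.78. The interferon list had a median of -0.99 in P95H and -0.52 in Mx1-Cre, the class I list -0.95 and -0.71, and the granulocyte markers -1.85 and -0.91, with 1 granulocyte marker called lower in Mx1-Cre. Other lists moved more in Mx1-Cre. Ribosome biogenesis genes had medians of 0.09 in P95H and 0.28 in Mx1-Cre, with 10 and 30 called higher. Chaperone genes had 7 and 20 rises, spliceosome core genes 5 and 14, and mitochondrial ribosomal and import genes 1 and 9. The falls on the last 2 lists were 5 and 7 in P95H and 0 in Mx1-Cre. In P95H these 4 lists depended on the scaling, as described above. Psme2, at -0.69 and -0.30, had the smallest unadjusted interaction p of the named genes (0.00293), and its adjusted p over all genes was 0.798.

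**Figure D5:**
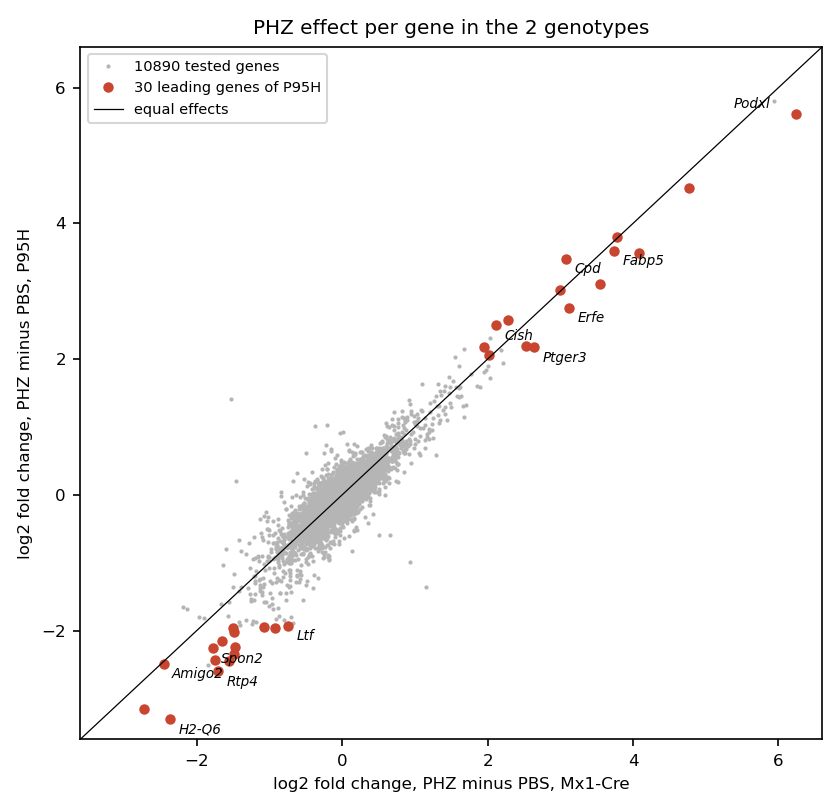
Log2 fold change after PHZ for each of 10890 tested genes in Mx1-Cre (horizontal axis) and in P95H (vertical axis), with grey points for all genes, red points for the 30 leading genes of P95H and a line of equal effects. The points follow the line (Pearson's r = 0.871), and the isolated grey point at the upper right is Tcrg-C1.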

How the data were processed

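CFU-E of 4 groups with 5 libraries each were profiled by RNA sequencing. The analysis began from a table that the authors deposited, in which 37748 gene entries each have a normalised expression signal. The submitters' processing notes name RSEM 1.2.4, TopHat2 2.0.8b, Bowtie and TopHat, as well as builds of both human (hg19, GRCh37) and mouse (mm10, GRCm38), without roles or order. Within each library the smallest distinct values were whole multiples of 1 step (tolerance 0.01), and larger values were not checked. Steps differed by library with factors of 0.940 to 1.10, so the values were not treated as read numbers. Symbols matched 35982 entries by identifier, 4 were named in the table, and 1762 had none. No library had a value above 0 for 17489 entries.

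Values were tested as log2(value + 1) with limma 3.58.1 in R 4.3.3, using trended and robust moderation, 1 mean for each of the 4 groups and Benjamini-Hochberg adjustment over 10890 genes. The fit was tested on simulated data. Two-sided adjusted p-values of at most 0.05 are calls. The members and the 43 lists (943 symbols, 811 measured, 329 of these called) were chosen with earlier results of these data known, so no p-value is given for a list, and a permutation test of marker list means that had been planned is not printed. The genes chosen for description were Srsf2, Fyn, the 15 largest rises and falls with a mean of at least 5 (no predicted genes or immune receptor segments) and up to 3 called members per list (137 genes). A further 46, and single members that spell out a count, were chosen after their values were seen, and some of the chosen genes are not reported here. Alternatives changed the scaling (trimmed mean of M values, quantile, equal sums), the pseudocount (0.1 and 5), the filter, the moderation, the libraries fitted and the covariates (Xist and the granulocyte marker mean). Plots used Python 3.11.15 with matplotlib 3.10.9.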

Additional observations from a re-analysis of the deposited data

Results flagged for a closer look

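Among 366 groups of 5 values examined, 13 held a library far from the other 4 by Dixon's criterion, which chance alone meets in about 1 of 20 groups. In PBS replicate 4, Tfrc was at 275 where the other PBS libraries were at 429 to 484, Acadl at 159 against 136 to 141, Pdk1 at 66.3 against 46.3 to 50.2, and Tap1 at 126 against 54.5 to 68.1. In PBS replicate 5, Rhag was at 239 against 269 to 274, and Il4 was listed at 0 against 0.708 to 1.07. Pfkp was at 5.14 in PBS replicate 2 against 6.72 to 7.22.

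Among the PHZ libraries, replicate 2 had Ccnd1 at 0.623 against 0.150 to 0.207 in the others and Oaz2 at 17.4 against 20.6 to 22.01. Replicate 4 had Cdc20 at 178 against 202 to 211 and Mrps21 at 213 against 184 to 188. Replicate 5 had Hspd1 at 1177 against 1387 to 1452 and Irf1 at 3.50 against 1.78 to 2.07. The cause of these gaps was not tested.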

How the results depend on the processing

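The counts of genes higher and lower after PHZ in P95H (1371 and 1923) stayed within 1.5 times under trimmed-mean and quantile scaling, both pseudocounts, both filters, the P95H groups alone, moderation without trend or robustness, library weights and the Xist covariate. They were 2656 and 1090 with equal library sums, 449 and 556 with the granulocyte marker covariate, and 837 and 1263 without PBS replicates 4 and 5, where fewer libraries were fitted. Leaving out 1 P95H library at a time gave 1084 to 1469 higher and 1589 to 1970 lower. With the replicate block the counts were 1403 and 1953. The main fit did not pair samples by the numbers in their titles. The deviations of same-numbered PBS and PHZ libraries correlated at -0.139, -0.178, 0.264, -0.0293 and 0.131. PBS replicates 3 and 5 alone correlated best with their own number. So few correlations cannot exclude a pairing.

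Without a filter, 1 gene was lower in the difference between genotypes (Cpne9, limma adjusted p = 0.0276), and all other alternatives called 0. The direction turned with the granulocyte marker covariate for S100a9 (0.21), S100a8 (0.14), Ltf (0.0012) and Fcgr3 (0.24), and with quantile normalisation for Fth1 (0.16), and the cause of these reversals was not tested. Of the 173 called genes chosen for description, 103 kept their call with the granulocyte covariate, 151 with equal sums and 154 without PBS replicates 4 and 5. The table holds no read numbers, so the precision of low values cannot be given, and the part of Cre induction and age, which the sources used here do not give, was not tested.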
